A study of Caenorhabditis elegans with 2 samples.

Results

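The 8 rsp genes of Caenorhabditis elegans, rsp-1 to rsp-8, encode SR splicing proteins, and the values below give the occupancy of the zinc finger protein ZTF-18 at each of them. They are 8 of 19973 protein-coding genes on the nuclear chromosomes and were found by symbol in the WBcel235 annotation. The set was chosen by peak signal as well as by family, since rsp-1 and rsp-2 were already known to hold one of the strongest peaks of these lists. Signals, ranks and counts of bound genes are therefore descriptions, and no test was made on them. The samples were 2 biological replicates of 1 group: whole young adult hermaphrodites of strain OP496, a line that stably expresses ZTF-18 fused at its C-terminus to GFP and FLAG, collected 64 hours after synchronization as starved L1 larvae. Chromatin was sonicated and then precipitated through the GFP tag. The labels call the construct an insertion and do not say whether an untagged copy of ZTF-18 remains. All tissues are mixed in these samples, so a site occupied in a few cells and a site occupied weakly in many cannot be told apart.

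SR proteins bind pre-mRNA through an RNA recognition motif, and through a tail rich in arginine and serine they help the U1 particle and the U2AF factor to settle on nearby splice sites. Kinases of the SRPK and CLK families phosphorylate that tail. RSP-1 and RSP-2 belong with the human subfamily of SRSF4, SRSF5 and SRSF6, RSP-3 with SRSF1, RSP-4 and RSP-5 with SRSF2, and RSP-6 with SRSF3. RSP-7 resembles human SRSF11, and RSP-8 resembles the splicing regulator TRA2. In the worm, rsp-3 is the member that embryos cannot do without when it alone is depleted by RNA interference.

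Peaks were taken from a thresholded list of 2465 peaks, a pooled relaxed list of 30000 and relaxed lists of 26104 peaks for replicate 1 and 27612 for replicate 2. Relaxed lists hold background along with peaks. Each peak's signal is the value its authors deposited, on a scale that is not stated, and read depth is unknown from these files. Values in different lists are therefore compared by rank, where rank 1 is the strongest peak. A gene is called bound when a thresholded summit falls in its promoter window, from 1000 bp before to 200 bp after the annotated 5′ end. Thresholded signals ran from 93.6 to 11118, with a median of 155.

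The DNA at 1 summit for each promoter or peak is shown here, because the sequence results refer to it. Each stretch is the WBcel235 sequence (the build of ce11) from the RefSeq genome, read 5′ to 3′ and centred on a pooled summit, except at rsp-6, where the bases immediately before the annotated gene start are given. For rsp-5 it is the intergenic summit, the weaker of the 2 in its window. For rsp-4 it is the strong peak upstream of ndx-6, with its summit outside the rsp-4 promoter window, and not the weak summit inside it. The interval of that strong peak does reach into the window. Capitals mark letters of any of the 10 words of 8 bases most in excess at the strongest ZTF-18 summits, which are described with the sequence results.
rsp-1 and rsp-2, chrII:11453130-11453280, forward strand: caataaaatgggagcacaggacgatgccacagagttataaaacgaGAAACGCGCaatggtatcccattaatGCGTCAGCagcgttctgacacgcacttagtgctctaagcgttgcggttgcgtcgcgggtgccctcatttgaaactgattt
ndx-6 and rsp-4, chrII:5390053-5390203, reverse strand: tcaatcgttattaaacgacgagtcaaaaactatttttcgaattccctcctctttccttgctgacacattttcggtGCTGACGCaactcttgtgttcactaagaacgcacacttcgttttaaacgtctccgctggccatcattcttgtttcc
rsp-6, chrIV:7791230-7791330, reverse strand: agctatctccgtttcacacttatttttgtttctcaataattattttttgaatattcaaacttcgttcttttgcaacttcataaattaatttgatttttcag
rsp-7, chrII:10658885-10658985, forward strand: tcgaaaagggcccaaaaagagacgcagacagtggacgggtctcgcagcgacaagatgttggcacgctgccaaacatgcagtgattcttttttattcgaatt
rsp-8, chrIII:11825820-11825920, forward strand: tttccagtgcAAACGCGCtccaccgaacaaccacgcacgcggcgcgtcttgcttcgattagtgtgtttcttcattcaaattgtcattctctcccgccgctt
rsp-3, chrIII:12688170-12688270, reverse strand: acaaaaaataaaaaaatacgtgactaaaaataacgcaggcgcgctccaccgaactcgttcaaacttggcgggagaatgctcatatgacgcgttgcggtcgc
rsp-5, chrII:6489854-6489954, forward strand: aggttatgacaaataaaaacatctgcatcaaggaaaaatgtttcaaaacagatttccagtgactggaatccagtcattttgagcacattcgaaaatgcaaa

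Of the 8 rsp genes, 4 were bound (rsp-1, rsp-2, rsp-6 and rsp-7), through 3 peaks, against 8.18% of all protein-coding genes. Since known binding helped to choose the set, nothing is read from that difference. The bound genes differed widely in rank among themselves: 1 peak between rsp-1 and rsp-2 was among the strongest in the genome, while the peaks of rsp-6 and rsp-7 were in the weaker part of the thresholded list. With the 250 strongest peaks alone, 2 rsp genes were bound, against 1.46% of all genes. Every rsp gene had at least 1 summit of the pooled relaxed list in its window, 8 of 8 against 39% of all genes. Among genes with such a summit, the median signal of the strongest one was 94.1 for the 8 rsp genes and 42.7 for all 7791 genes.

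**Figure D1:**
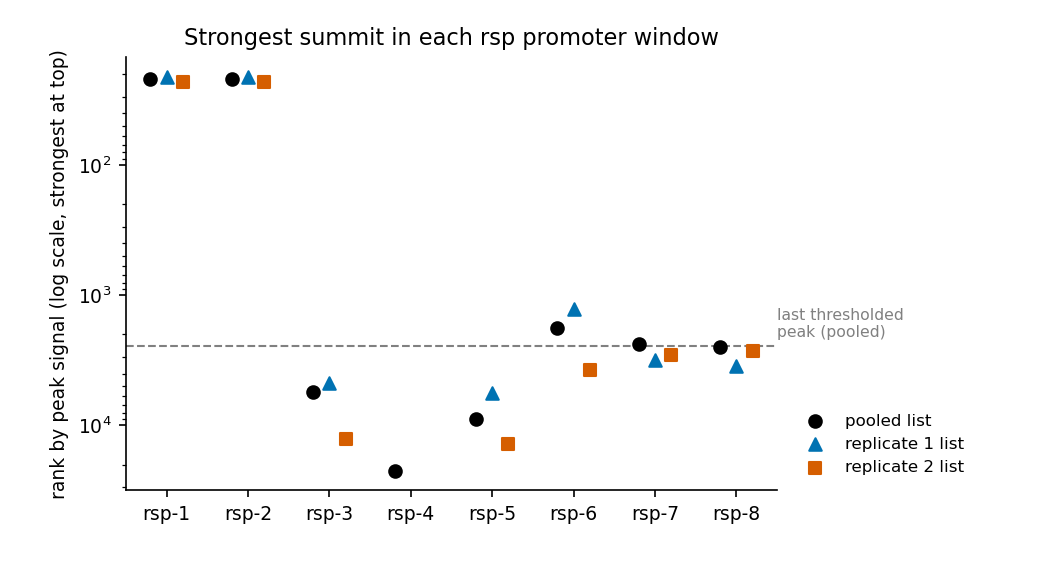
Rank by peak signal (vertical log axis, strongest at the top) of the strongest summit in the promoter window of each rsp gene (horizontal axis), in the pooled list (circles), replicate 1 (triangles) and replicate 2 (squares). The dashed line is the last thresholded peak, rank 2465. The shared peak of rsp-1 and rsp-2 sits at ranks 21 to 23 in each list, and rsp-4 has a point in the pooled list alone.

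The peak between rsp-1 and rsp-2 had a signal of 4527 in the pooled list, 2719 in replicate 1 and 1868 in replicate 2. It ranked 22 in the pooled list, 21 in replicate 1 and 23 in replicate 2, so both replicates placed it almost alike. These genes, of the same subfamily, lie on chromosome II head to head, rsp-2 (WBGene00004699, 11451441 to 11452955) on the reverse strand and rsp-1 (WBGene00004698, 11453362 to 11455864) on the forward strand, with 406 bp between their annotated 5′ ends. The summit at 11453205 was intergenic, 157 bp upstream of rsp-1 and 250 bp upstream of rsp-2, and no other gene had it in its window. One summit thus counts for both genes, and the lists cannot say which promoter was occupied. Of the 1368 thresholded summits with a bound gene, 384 (28.1%) likewise lay upstream of genes on both strands.

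The rsp-1 and rsp-2 peak was also long. It spanned 11452594 to 11454118, or 1525 bp, and 9 of the 2465 thresholded peaks, itself included, were at least as wide, whereas 1433 had a width of 510 bp. Within the rsp-1 and rsp-2 promoter windows, replicate 1 held 2 summits, the stronger at 11453212 and another at 11453419. The latter lay 57 bp inside rsp-1 with a signal of 605 and rank 211. Replicate 2 held 1, at 11453206. The interval reached over part of the annotated transcript starts of rsp-1: of its 6 transcripts, 1 starts at the gene's 5′ end and the others 612, 618 or 1310 bp downstream. Because trans-splicing replaces the first bases of many worm transcripts, RNA polymerase may start upstream of an annotated 5′ end. The 6 bases before a start were TTTCAG, the letters typical of a worm splice acceptor, at the gene 5′ end of 2 of 8 rsp genes (rsp-2 and rsp-6), against 12.3% of all genes. Counting any annotated transcript, they preceded a start of 5 of 8 rsp genes (rsp-1, rsp-2, rsp-3, rsp-6 and rsp-7), against 16.8% of all genes. That count gives genes with several annotated starts more places for a match, and the rsp-1 match was at the start 618 bp downstream. Neither count was among the planned results.

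**Figure D2:**
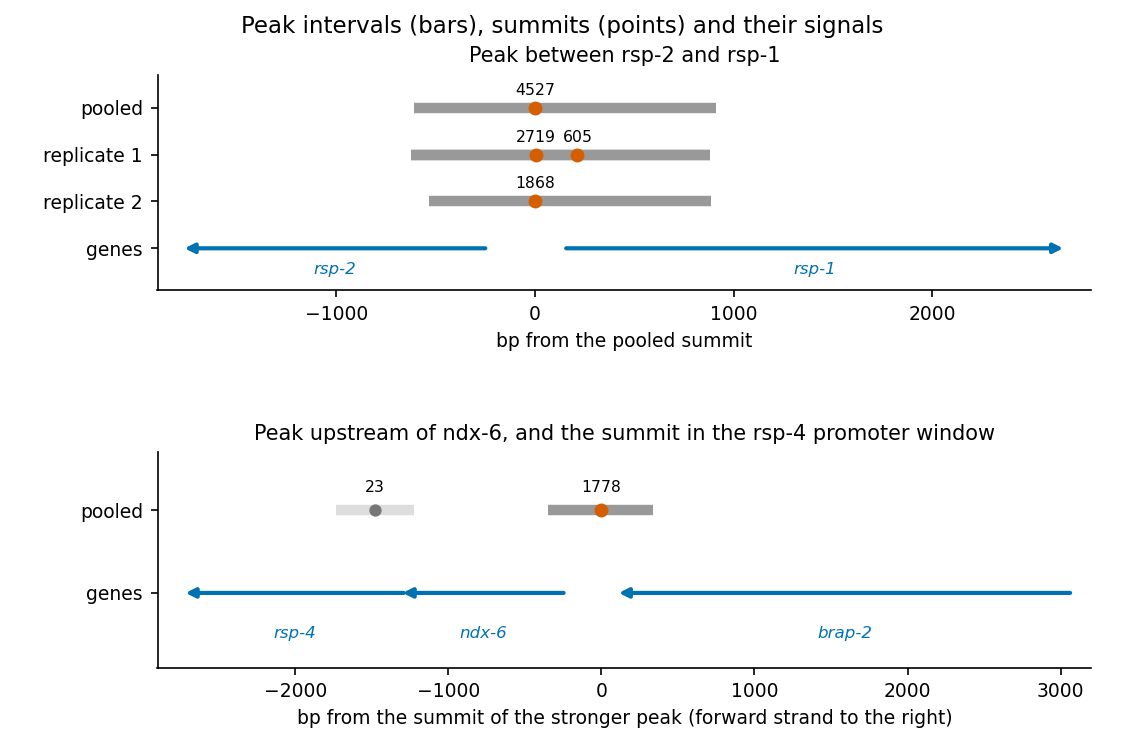
Peak intervals (bars), summits (points) and signals (numbers) around the gene pair rsp-2 and rsp-1 (top, pooled list and each replicate) and around rsp-4 and ndx-6 (bottom, pooled list), in bp from the summit of the strongest peak, with genes as arrows in the direction of transcription. The top peak, of signal 4527, covers the 5′ ends of both genes, and the bottom one, of signal 1778, lies upstream of ndx-6, with the summit of signal 23 inside rsp-4 drawn for comparison.

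Peaks most like that of rsp-1 and rsp-2 were those with the smallest distance in log10 rank over the pooled, replicate 1 and replicate 2 lists, among 1624 bound genes. First came the peak shared by rsr-1, the worm counterpart of the splicing coactivator SRm160, and sri-5, a member of a chemoreceptor family, at ranks 21, 20 and 21 and a distance of 0.0492. A peak shared by dnj-19 (a J-domain protein gene) and nhr-47 (a nuclear receptor gene) followed at ranks 23, 23 and 25 and a distance of 0.0570. The peak at fbxl-2, an F-box protein gene, had ranks 19, 19 and 22 and a distance of 0.0795. Likeness here means closeness in rank and nothing more.

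The peak of rsp-6 (WBGene00004703, chromosome IV, 7789847 to 7791229, reverse strand) had a signal of 119 and rank 1793 in the pooled list. Its interval was 7791009 to 7791518, and its summit at 7791264 was intergenic, 35 bp upstream of the gene. In replicate 1 the strongest summit of the window had a signal of 92.3 and rank 1273 at the same 35 bp. In replicate 2 it had a signal of 34.2 and rank 3784, at 9 bp upstream. The replicates therefore placed rsp-6 less alike than rsp-1 and rsp-2, with the peak among the 2465 strongest of replicate 1 and outside those of replicate 2. No other annotated gene had the rsp-6 summit in its window.

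The peak of rsp-7 (WBGene00004704, chromosome II, 10659206 to 10662317, forward strand) had a signal of 95.9 and rank 2387, near the end of the thresholded list. It spanned 10658680 to 10659189, with its summit at 10658935, 271 bp upstream of rsp-7. The signal was 49.6 at rank 3157 in replicate 1 and 40.3 at rank 2878 in replicate 2, so neither replicate had it among its 2465 strongest. This summit too was shared: it lay 309 bp upstream of snu-13 on the opposite strand, which encodes a protein of the spliceosomal tri-snRNP and of box C/D snoRNPs. It also lay in an exon of the noncoding RNA gene M28.13, 38 bp from its 5′ end.

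Counted in each replicate alone, the 2465 strongest peaks bound 3 of 8 rsp genes in replicate 1 (rsp-1, rsp-2 and rsp-6), against 7.85% of all genes, and 2 of 8 in replicate 2 (rsp-1 and rsp-2), against 7.82%. The median bound gene had its strongest summit 250 bp upstream of its 5′ end, with quartiles at 445 and 134 bp upstream. The summits of rsp-1, rsp-2 and rsp-7 lay between those quartiles, and that of rsp-6 lay closer to the gene.

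The threshold passed between rsp-7 and rsp-8. The last thresholded peak had a signal of 93.5672 and the next pooled peak 93.5666, and rsp-8 (WBGene00004705, chromosome III, 11826418 to 11830974, forward strand) had 92.3 at rank 2517. Its summit at 11825870 was intergenic, 548 bp upstream of the gene, with no other gene in reach. In replicate 1 it had a signal of 46.3 and rank 3502, and in replicate 2 41.8 and rank 2704. These ranks are close to those of rsp-7, the member just inside the threshold, and in replicate 2 the rsp-8 peak was the stronger. The −log10 q of the rsp-8 peak was 2.78, the highest in the thresholded list and the value that 3291 pooled peaks had. The peaks of the bound rsp genes had it too, so q does not separate rsp-8 from them.

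The gene for the SRSF1 counterpart, rsp-3 (WBGene00004700, chromosome III, 12686182 to 12687922, reverse strand), had a signal of 54.2 and rank 5574 in the pooled list, with a −log10 q of 1.39. The summit lay at 12688220, 298 bp upstream of rsp-3. It was also 98 bp upstream of spin-4, a gene of the spinster family of lysosomal transporters, on the other strand. In replicate 1 the signal was 38.4 at rank 4731, and in replicate 2 it was 17.9 at rank 12725, so the summit stood lower in replicate 2. A summit of higher signal, 61.7 at rank 4547, lay 1200 bp downstream of the 5′ end in an exon of rsp-3.

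Of the SRSF2-like pair, rsp-5 (WBGene00004702, chromosome II, 6490165 to 6491340, forward strand) had 2 weak summits in its window. The stronger in the pooled list, 652 bp upstream in an intron of snr-3, had a signal of 40.9 and rank 8880. The other, intergenic at 261 bp upstream, had a signal of 37.2 and rank 10476, and it also lay 143 bp upstream of snr-3, which encodes the core snRNP protein SmD1. Within 100 bp of these positions, replicate 1 had summits of 34.3 and 30.0 at ranks 5676 and 7189, and replicate 2 had 14.3 and 17.1 at ranks 18651 and 13812. The order of the pair thus differed between the replicates.

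The other SRSF2-like gene, rsp-4 (WBGene00004701, chromosome II, 5387411 to 5388836, reverse strand), had the lowest window signal of the 8. Its only summit there, 189 bp downstream of the 5′ end in an exon of rsp-4, had a signal of 22.8, rank 22219 and a −log10 q of 0.103. Neither replicate had a summit in the window, though replicate 2 had one of signal 20.8 and rank 9653 within 100 bp of the pooled one.

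A strong peak lay nearby, however, 1292 bp upstream of rsp-4. It spanned 5389780 to 5390462 with a signal of 1778 and rank 134 in the pooled list, and it ranked 138 in replicate 1 and 132 in replicate 2. Its summit at 5390128 was 247 bp upstream of ndx-6 (5388829 to 5389881), a gene for a Nudix hydrolase on the same strand whose annotated 3′ end overlaps the 5′ end of rsp-4. With the window widened to 2000 bp upstream, rsp-4 was counted through this peak and 5 of 8 rsp genes were bound, against 10.6% of all genes. Peak positions alone do not say which of these genes, if either, the peak belongs to.

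**Figure D3:**
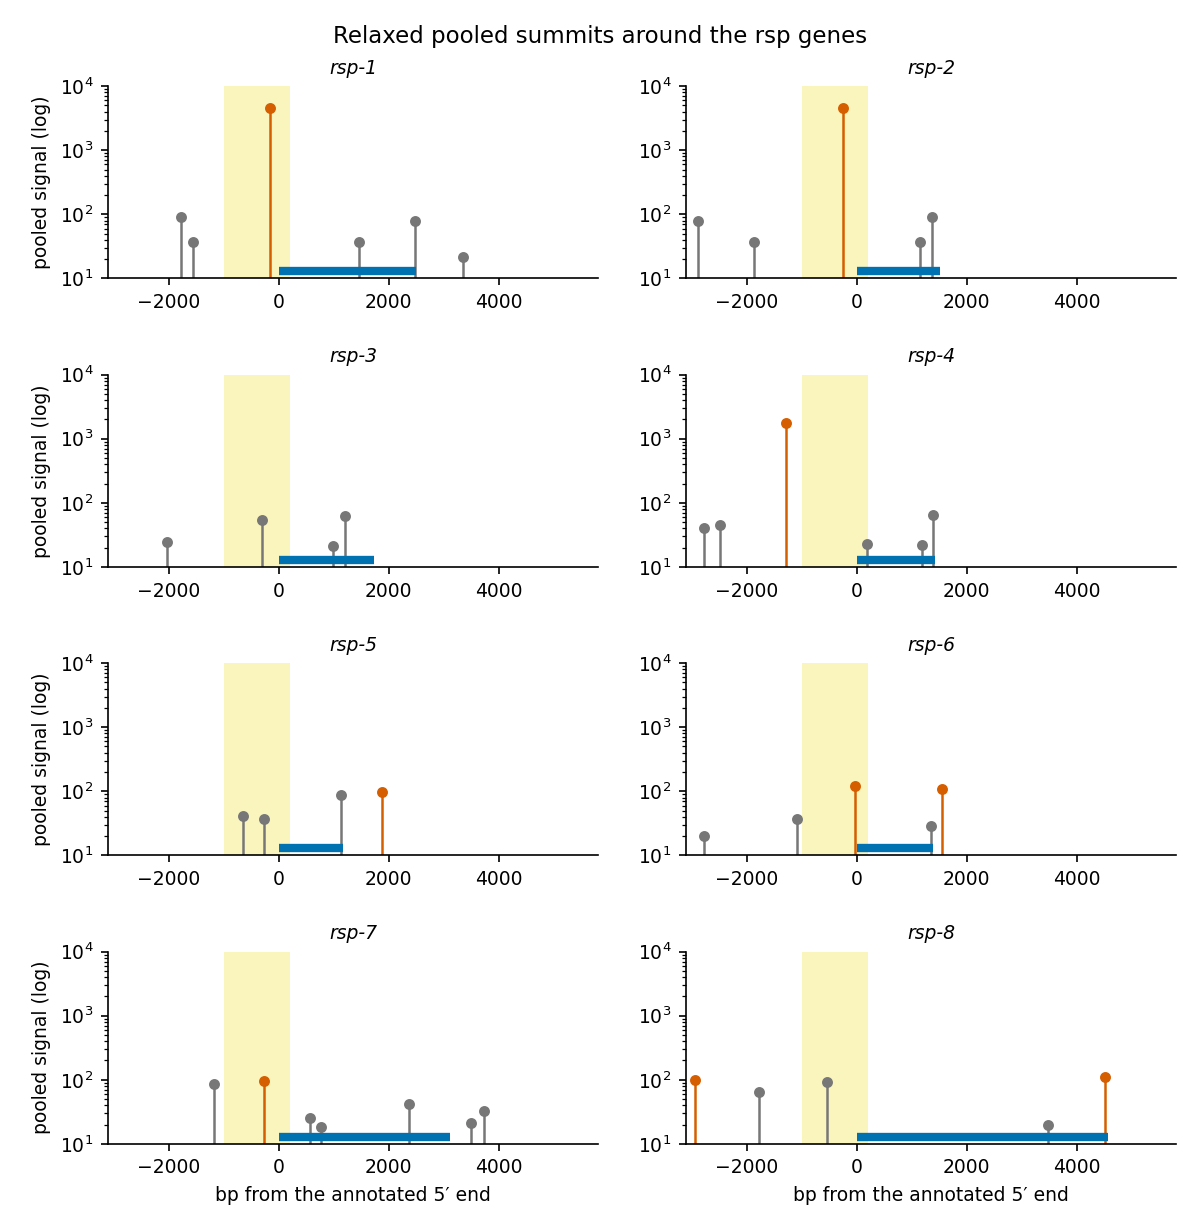
Pooled relaxed summits near each rsp gene, by distance from the annotated 5′ end (horizontal axis, bp, transcription to the right) and signal (vertical log axis). Orange stems are thresholded summits and grey stems are the other relaxed ones, yellow marks the promoter window, and the blue bar is the gene. The stems of rsp-1 and rsp-2 at signal 4527 are the same peak, and the summit of signal 1778 near rsp-4 lies outside its window.

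Weak summits also lay near the other end of most rsp genes, a pattern looked for after the positions were seen. A pooled relaxed summit lay within 250 bp of the annotated 3′ end in 6 of 8 rsp genes (all but rsp-3 and rsp-7), against 23.5% of all genes, and within 500 bp in 7 of 8, against 34.8%. At rsp-8 the summit 54 bp before the 3′ end was itself thresholded, with a signal of 110 and rank 1995, and ranks of 2786 in replicate 1 and 1491 in replicate 2. At rsp-6 a thresholded summit of signal 110 and rank 1996 lay 169 bp past the 3′ end, which is 65 bp upstream of the neighbouring gene imp-3. The others were below the threshold, with 90.6 at rsp-2, 87.5 at rsp-5, 79.6 at rsp-1 and 64.4 at rsp-4. Both replicates had a summit within 100 bp of those at rsp-5 and rsp-4. Replicate 1 had none within 100 bp of that at rsp-2, and replicate 2 none within 100 bp of that at rsp-1. The rsp-1 summit also lay in an exon of another gene, WBGene00012202. The summit at the end of rsp-4 lay 135 bp upstream of ccpp-6, so proximity to the end of an rsp gene and to the start of the next gene cannot always be told apart. A further thresholded summit, of signal 98 and rank 2313, lay 702 bp past the end of rsp-5 and 49 bp upstream of T28D9.11. The last, of signal 99.8 and rank 2264, lay 2931 bp upstream of rsp-8 and 39 bp inside C18D11.3.

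For the sequence results, words of 8 bases on either strand were counted within 50 bp of the 250 strongest nuclear summits, leaving out the thresholded peaks of the rsp genes, and in flanks 250 to 300 bp to each side. The leading word was GCGCCAGC, or GCTGGCGC on the other strand, at 99 of 250 summits (39.6%) and in 0 of the 250 pairs of flanks. It was in 4.86% of all 2449 nuclear thresholded summit windows of 101 bp and in 1.55% of all promoter windows, which are longer at 1201 bp. None of the rsp summit windows held it, and no rsp promoter window did. A match is a description and not a binding site, and its absence says only that these letters are not in the window.

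The rsp-1 and rsp-2 summit held 3 of the 10 leading words. In the sequence shown first, the run GAAACGCGC joins CGCGTTTC (written there as GAAACGCG) and AAACGCGC, which overlap and lie 30 to 22 bp to the left of the summit. The word GCGTCAGC covers the summit itself, from 4 bp left to 3 bp right of it. AAACGCGC (other strand GCGCGTTT) was at 30.4% of the 250 strongest summits, in 5.51% of all summit windows and in 3.64% of all promoter windows. CGCGTTTC was at 29.2% of the 250, in 3.63% of summit windows and in 2.40% of promoter windows. GCGTCAGC (other strand GCTGACGC) was at 22.4%, in 2.98% and in 1.27% in the same order. Several of the 10 words overlap each other, among them GCGCCAGC and CGCCAGCA, so they are not separate motifs.

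GCGTCAGC was also the word under the strong peak near rsp-4. There it reads GCTGACGC on the strand of ndx-6 and rsp-4, from 7 bp left of the summit to the summit on the forward strand. That peak was among the 250 summits counted. In the weak window summit of rsp-4 itself there was none of the 10 words, although its promoter window as a whole held CGCGTTTC.

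The rsp-8 window, just below the threshold, held AAACGCGC 40 to 33 bp to the left of its summit. The windows of rsp-3, rsp-5, rsp-6 and rsp-7 held none of the 10 words. At least 1 word was in 15% of all summit windows, 2.57% of flanks and 15% of promoter windows. A summit window spans 101 bp and a promoter window 1201 bp, so the equal shares are not over equal lengths. The share of summit windows followed rank. A word was held by 88.3% of the 94 nuclear summits at ranks 1 to 100 and by 75.5% of the 143 at ranks 101 to 250. It was held by 17% of the 247 from 251 to 500, by 8% of the 500 from 501 to 1000, and by 6.42% of the 1465 from 1001 to 2465. The words were chosen at the 250 strongest summits, which raises the shares there. Most summits after rank 250 had no part in that choice. The rsp-1 and rsp-2 summit, with 3 words at rank 22, had the median number of ranks 1 to 100, which was 3. Those of rsp-6 and rsp-7, with 0 words, had the median number of ranks 1001 to 2465, which was 0.

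**Figure D4:**
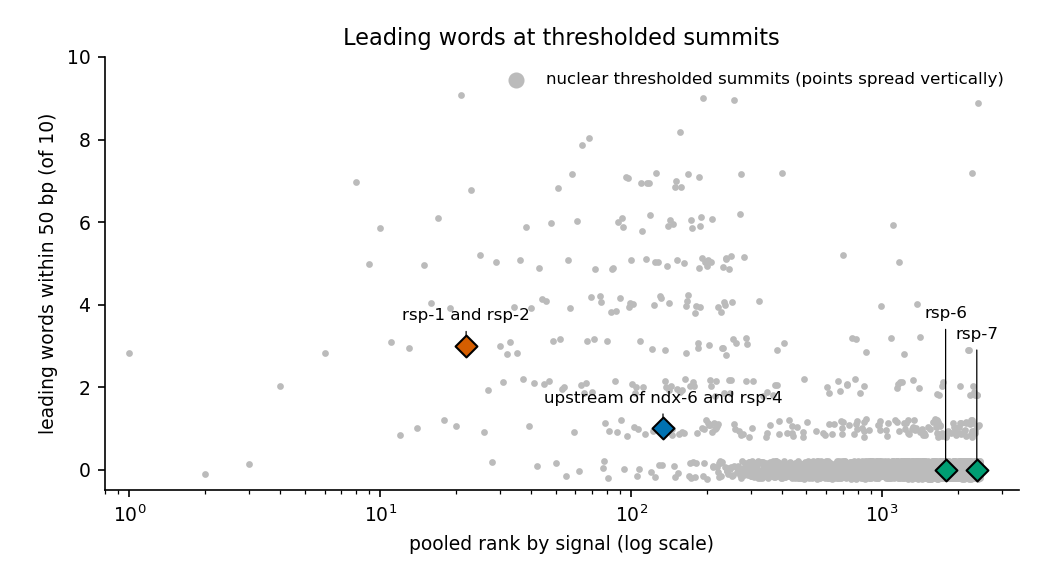
Number of the 10 leading words within 50 bp of each nuclear thresholded summit (vertical axis, points spread slightly for visibility) against its pooled rank (horizontal log axis). Diamonds mark the peak of rsp-1 and rsp-2 with 3 words, the peak upstream of ndx-6 and rsp-4 with 1, and those of rsp-6 and rsp-7 with 0.

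The windows also differed in base composition, and the rsp-3 and rsp-8 windows shared a stretch. GC content within 50 bp of the summit was 51.5% at rsp-1 and rsp-2, 26.7% at rsp-6, 48.5% at rsp-7 and 52.5% at rsp-8, against a median of 47.5% at all thresholded summits. It was 46.5% at rsp-3, 38.6% at rsp-4, and 19.8% and 33.7% at the 2 summits of rsp-5. Among 36 pairs of summit windows, the longest run of identical bases was 15, on chromosome III between rsp-8 and rsp-3, and the next longest was 10. It reads CGCGCTCCACCGAAC in the lines above for both genes and takes in part of the AAACGCGC match of rsp-8. On either strand it was in 15 promoter windows of 19973, or 0.0751%, and in 0 of the 2449 thresholded summit windows. The 15 include the windows where it was found, those of rsp-3, rsp-8 and spin-4, which shares the rsp-3 summit. Neither summit was thresholded, so neither could be among the 2449. The stretch was noticed after the sequences were seen.

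**Figure D5:**
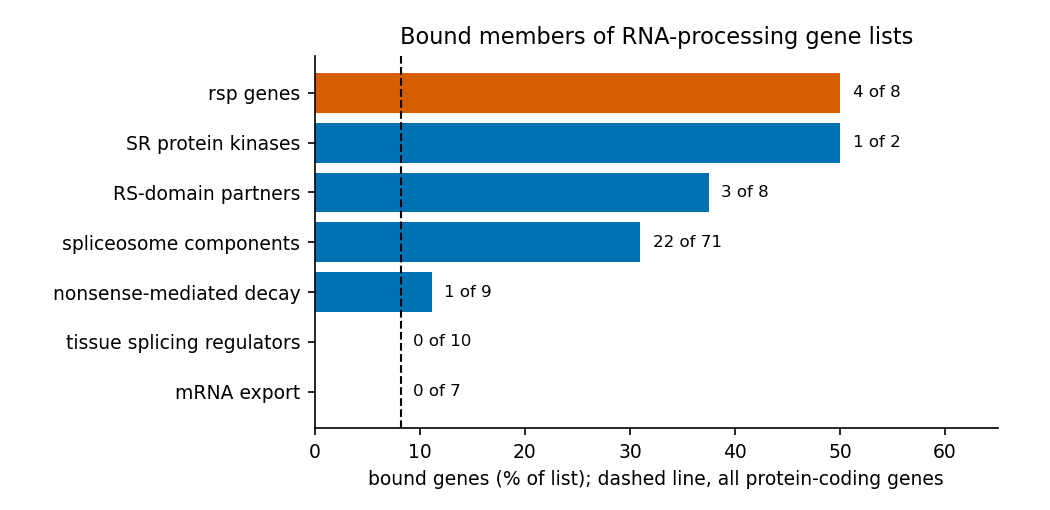
Share of each gene list that was bound (horizontal axis, %), with the number bound of the number found beside each bar. The dashed line is the share of all protein-coding genes, 8.18%. The rsp genes, at 4 of 8, are drawn first, and no tissue splicing regulator or mRNA export gene was bound.

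Genes whose products work with SR proteins are described by count only. Across 6 lists of RNA-processing genes, 27 of 107 were bound (25.2%), against 8.18% of all genes. A relaxed summit was found in 88 of the 107, against 39% of all genes, and its median signal was 67.9, against 42.7 for all genes with one. Of the kinases that act on SR proteins, spk-1 (an SRPK gene) was bound with a signal of 243 and rank 630, and madd-3 (a CLK-family gene) was not. Of the partners with RS domains or next to them in early splice-site recognition, 3 of 8 were bound: rsr-1 with 4747 at rank 21, swp-1 (a SWAP-family regulator) with 138 at rank 1472, and sfa-1 (the branch-point binding protein) with 110 at rank 2002. The summit counted lay at -905 bp for swp-1 and at -16 bp for sfa-1, with negative values upstream of the 5′ end. The peak counted for rsr-1 is the one shared with sri-5, whose 5′ end lay nearer to the summit. Its rank, 21, was next to that of the strongest rsp peak, 22, and nothing is read from that.

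Of 71 spliceosome genes 22 were bound (31.0%), led by prp-40 (a U1-associated protein) with a signal of 3083 at rank 50 and syf-2 (of the Prp19-associated complex) with 2448 at rank 77. Neither exceeded the rsp-1 and rsp-2 peak. Of 9 nonsense-mediated decay genes 1 was bound, smg-8, with 107 at rank 2075. None of 10 tissue-specific splicing regulators and none of 7 mRNA export genes was bound. The share of all genes was 8.18%, and with lists this small nothing is read from the decay, regulator and export counts. In the pooled relaxed list, 3 of the 10 regulators and 4 of the 7 export genes had a summit, beside 39% of all genes.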

How the data were processed

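Chromatin immunoprecipitation followed by sequencing was done on 2 biological replicates of 1 group, per the labels. The authors deposited peak lists on ce10 and ce11. Relaxed lists were input for the irreproducible discovery rate, which compares peak ranks between replicates, and the thresholded list was derived from them, per the file headers. The signal and −log10 q-value of each peak were deposited by the authors. Which aligner, caller, filter or threshold was used is not given in the sources used here, and the control experiment that the labels point to was not analysed here. The thresholded ce11 list was identical to the 2465 strongest pooled peaks. Of these, 2449 were nuclear, and mitochondrial peaks were not used for genes. Read depth is unknown from these files, so no precision is given for a signal.

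Positions were compared with WBcel235 gene models of Ensembl release 115 and the RefSeq genome. No ce10 annotation was used, so gene results are on ce11. The lists held 119 symbols. The annotation lacked 12 of them (snrp-1, snrp-2, snrp-4, snrp-5, snrp-6, snrp-7, sap-1, sap-114, sftb-3, sftb-4, sftb-5 and lsm-2), which were left out. Members, gene lists and words were chosen with earlier results of these data known. Named genes are the 8 rsp genes, genes sharing a summit with one, the 3 nearest in rank to the strongest rsp peak with ties and genes of the same peak, and the 2 strongest bound genes of each list. The third RS-domain partner, neighbours of rsp-4 and genes next to 3′ summits were added after their values were seen. Alternatives covered windows, gene starts, lists, replicates and word length. Peak assignment and word counting were tested on simulated data. Python 3.11.15, numpy 2.4.6, pandas 2.3.3, scipy 1.17.1 and matplotlib 3.10.9 were used.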

Additional observations from a re-analysis of the deposited data

How the results depend on the processing

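The count of 4 bound rsp genes depended on the peak list. It was 2 with the upper part of the thresholded list (4.28% of all genes bound), 2 with the 250 strongest peaks (1.46%), 2 with peaks overlapped by a top peak of both replicates (6.22%), and 8 with the whole pooled relaxed list (39%), beside 8.18% for the full thresholded list. It ran from 2 to 3 with 1 replicate left out: 2 from replicate 2 alone, without rsp-6 and rsp-7 (7.82% of all genes), and 3 from replicate 1 alone, without rsp-7 (7.85%). Windows of 500 bp upstream (6.57%) or 500 bp downstream (8.51%) and all transcript starts (8.75%) gave 4. The nearest 5′ end alone (6.14%) gave 3 by losing rsp-2, and 2000 bp upstream (10.6%) or interval overlap (9.03%) gave 5 by adding rsp-4. The 27 bound among 107 listed genes became 16 with the upper part, 9 with the 250 strongest and 88 with the relaxed list. The shares of all genes were the same 4.28%, 1.46% and 39%. With either replicate left out they numbered 27. They fell to 20 with the nearest 5′ end alone (6.14%) and to 22 with peaks overlapped by a top peak of both replicates (6.22%). Windows of 500 bp upstream (6.57%) and 2000 bp upstream (10.6%) gave 25 and 32. The leading word, at 39.6% of summits, was at 48% of the 100 strongest and 21.6% of the 500 strongest. The 6-base leader GCGCCA was at 66.4%, and any of the 10 words, chosen after seeing the data, at 78.8%. Pooled signals were read again under each alternative and not recomputed, so a value could move only where another summit was taken. The shared peak of rsp-1 and rsp-2 was counted for each gene. Of 39 such readings 36 were unmoved. The exceptions were rsp-4 at 1778 with 2000 bp upstream, and rsp-5 at 37.2 for its nearest summit and with 500 bp upstream. With 500 bp upstream rsp-8 had no summit, and that case is not among the 39. Of 14 replicate ranks, read in the same way, 13 were unmoved, the exception being rsp-5 at 18651 in replicate 2 when matched within 100 bp. The ce10 alternative was not run for genes. No paired analysis was possible because there was 1 group.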

Other observations

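On ce10 the thresholded list held 2453 peaks. Peaks were matched by chromosome, width and a signal within 0.1%, with no conversion of coordinates. The rsp-1 and rsp-2 peak had 1 match, at rank 22, and the rsp-7 peak had 1 match, at rank 2389. The rsp-6 peak had 2 matches, and the peaks of rsp-3, rsp-4, rsp-5 and rsp-8 had 0. These counts cover the thresholded ce10 list alone. The peaks with 0 matches were below the threshold on ce11 too, so the counts do not say whether they recur on ce10.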
